A study of Drosophila melanogaster with 120 samples.

Results

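H12 is 1 of 15 hemiclonal lines of Drosophila melanogaster in this series, and it was measured on 8 of the 120 arrays, 4 of adult males and 4 of adult females. These are all arrays that carry the label of the line, and they were set within each sex against the 56 arrays of the other 14 lines (H07, H09, H10, H13, H14, P07, P13, P15, P18, P22, P26, P48, P50 and P56). Flies of every group came from the outbred population LHm, and all flies of a line carry 1 cloned haploid genome beside a second one drawn at random from that population. Each array holds RNA of 6 whole flies at Day 14 of age (4 days as adults), which had been with tester flies for 24 h and apart from them for 20 h, and were frozen 4 h after sorting. Males were sons of double-X LHm mothers, C(1)DX, y, f, so they have the X of the line alone and a Y that is not the line's, while females have that X beside another. The fourth chromosome is not part of the shared genome. H12 is thus 1 sampled genome, measured beside varied partner genomes, and its fitness class is not given in the sources used here.

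A cloned genome carries one set of regulatory alleles, which on the autosomes act beside a different second allele in each fly and on the X of males act alone. Cytochrome P450s, glutathione S-transferases and secreted serine proteases belong to large families of tandem duplicates whose enzymes process foreign compounds and food proteins, and their expression is known to vary between strains of the fly. Genes of the male and female germ lines are expressed almost wholly in 1 sex, and a whole fly mixes them with gut, fat body, muscle and nervous system.

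The deposited values are log2 RMA levels, here of 18,769 transcripts (probe sets) once control probe sets are left out. A difference is the H12 mean minus the mean of the other 14 line means, so that 1 stands for a 2-fold difference, and a transcript was called at an FDR of 0.05 in limma. In whole flies, a lower level can reflect fewer cells of a type or less RNA per cell, which cannot be told apart. Sex markers matched the labels on all 8 arrays: SP (sex peptide) lay between 13.70 and 14.04 in H12 males and between 4.00 and 4.54 in H12 females, and Yp1 (a yolk protein) between 14.46 and 14.53 in the females. Yp1 split the H12 males, at 4.25 and 5.25 in replicates 1 and 3 but 8.95 and 8.84 in replicates 2 and 4, against 3.70 to 9.84 on the other male arrays. Yp2, Yp3, osk, nanos and Cp36, which mark ovary and yolk, were likewise higher in male replicates 2 and 4, and the mean level of 24 egg yolk and eggshell genes was 4.62, 5.38, 4.83 and 5.58 in male replicates 1 to 4 (4.62 to 6.02 on the other male arrays). In limma 0 of these 24 genes were called in either sex, and at an unadjusted p under 0.05 the counts were 0 in males and 10, all higher, in females. Pairs of H12 arrays correlated across transcripts at 0.995 to 0.997 in males and 0.994 to 0.997 in females, and for 7 of the 8 arrays the closest array of that sex was another H12 array.

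In males, 2,431 transcripts (13%) were called, 1,189 higher (6.33%) and 1,242 lower (6.62%) in H12. Females gave 592 (3.15%), 337 higher (1.8%) and 255 lower (1.36%). Most differences were small, under 0.5 in 2,066 male and 420 female calls, and 75 male (0.4%) and 25 female calls (0.133%) reached 2-fold. The same contrast for each other line gave 901 to 4,515 calls in males (median 1,589) and 249 to 1,530 in females (median 347), so H12 ranked 3rd and 4th of the 15 lines. H12 had the highest or lowest of the 15 line means in 1,476 male (7.86%) and 397 female calls (2.12%). Its 4 arrays lay wholly outside the range of the other 56 for 49 transcripts in males (0.261%) and 29 in females (0.155%). Replicates 1 and 3 alone, which leaves fewer H12 arrays, gave 695 male calls, of which 673 were among the 2,431 with the same sign, and all 2,431 differences kept their sign. Both arrays also went into the 2,431 calls, so this overlap and the kept signs are not independent of them. With Yp1 as a covariate of the male arrays the count was 2,492.

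The largest difference was that of Cyp6t1, a cytochrome P450 gene on the X. The 4 male arrays of H12 read 3.83, 4.33, 4.03 and 4.26, and the other male line means ran from 4.30 to 8.67 (median 8.24). Female arrays of H12 read 6.93, 6.69, 6.81 and 6.66, against line means of 6.88 to 8.25 (median 7.87). H12 was the lowest line in both sexes, but H09 stood nearly as low, at 4.30 in males and 6.88 in females, and its arrays overlapped those of H12; the next line in males was P13 at 8.01. The difference was -3.91 ± 0.10 in males (mean ± SE, 15.1-fold lower, adjusted p = 1.2e-34) and -1.10 ± 0.07 in females (2.14-fold lower, adjusted p = 3.4e-17).

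**Figure D1:**
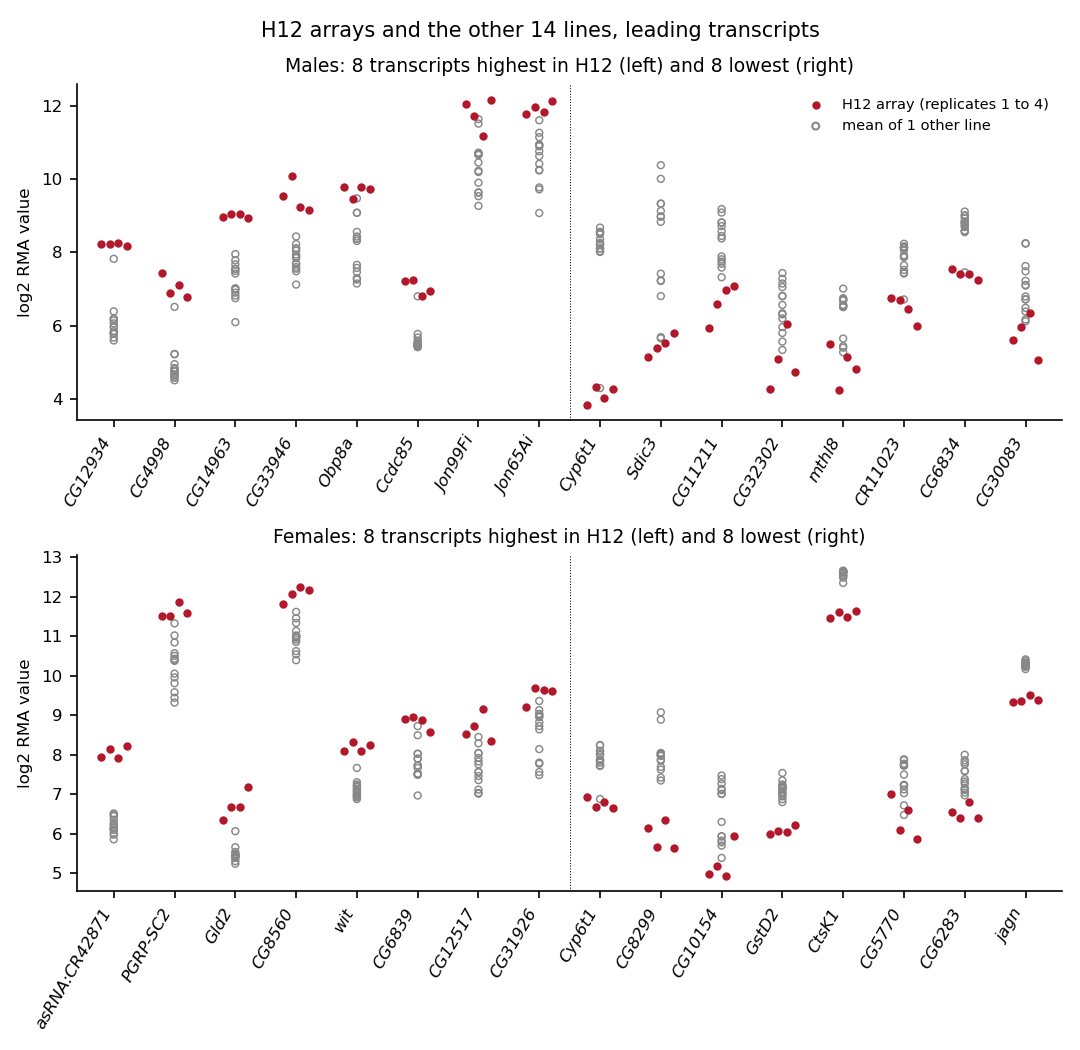
Log2 RMA levels of the 8 transcripts with the largest positive and the 8 with the largest negative difference among those in which H12 was the most extreme line, in males (top) and females (bottom). Red points are the 4 H12 arrays and grey circles the means of the 14 other lines, and for Cyp6t1 in males 1 other line, H09, sits at the H12 level while the other 13 lie at 8.01 or above.

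Sdic3, a copy of the sperm dynein intermediate chain family on the X, followed in males. Its H12 males read 5.13, 5.39, 5.52 and 5.81, and the other lines ran from 5.65 to 10.37 (median 8.90), a difference of -2.75 ± 0.14 (adjusted p = 4.0e-21). H10 at 5.65 and H09 at 5.69 were as low as H12. Copies of this family are nearly identical and lie in tandem, so which copy the signal comes from is uncertain, and the probe set of Sdic1 differed by -0.28 (adjusted p = 0.034). In females, where the family is near the low end of the scale, Sdic3 read 4.64, 4.49, 4.98 and 4.49 in H12 and 4.34 to 4.77 in the other lines (0.07 ± 0.11, adjusted p = 0.85).

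The other 6 named transcripts that were lowest in H12 males differed by -1.64 to -1.28. CG11211 read 5.94, 6.60, 6.96 and 7.09 in H12 males against line means of 7.32 to 9.18 (-1.64 ± 0.17, adjusted p = 1.2e-10). CG6834 read 7.53, 7.42, 7.40 and 7.26 against 7.45 to 9.11 (-1.30 ± 0.07, adjusted p = 1.5e-19). P50 was the other low line for CG6834 and H09 the nearest for CG11211, and both transcripts overlapped arrays of other lines. The methuselah-like receptor gene mthl8 read 5.51, 4.25, 5.13 and 4.80 against 5.27 to 7.01 (-1.38 ± 0.14, adjusted p = 5.1e-11). A second probe set of mthl8 gave -1.19 (adjusted p = 8.8e-09), and H12 was the lowest line in females too (-0.66 ± 0.10, adjusted p = 7.1e-06). CR11023 differed by -1.33 ± 0.13 in males, and in females of the other lines it was near the low end of the scale (3.35 to 3.88). CG30083 differed by -1.28 ± 0.21 in males and -0.70 ± 0.19 in females, where the call was lost without replicate 1 (adjusted p = 0.23) or 4 (0.17). CG32302 read 4.27, 5.08, 6.03 and 4.73 and differed by -1.44 ± 0.45 (adjusted p = 0.027). That call was lost without any 1 of replicates 1, 2 and 4 (adjusted p of 0.16, 0.085 and 0.095) and with replicates 1 and 3 alone (0.30).

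Among transcripts high in H12 males, CG12934 read 8.22, 8.23, 8.24 and 8.18. The other line means ran from 5.59 to 7.82 (median 5.96), with H07 at 7.82 and the next line, P50, at 6.39. All 4 H12 arrays lay above all 56 others (2.13 ± 0.08, adjusted p = 8.8e-27), and in females, where they read 6.93, 7.36, 7.40 and 6.90, H12 was again the highest line and H07 the next (0.95 ± 0.11, adjusted p = 2.6e-08). CG4998 read 7.43, 6.88, 7.12 and 6.77 in H12 males against 4.51 to 6.51 (2.13 ± 0.31, adjusted p = 8.1e-07), with only P26 within 1 of H12. For CG14963 the H12 males read 8.96, 9.03, 9.03 and 8.93 against 6.09 to 7.95 (1.78 ± 0.13, adjusted p = 7.6e-16). CG33946 read 9.54, 10.08, 9.23 and 9.14 against 7.12 to 8.43 (1.66 ± 0.15, adjusted p = 2.9e-12). In these 4 transcripts no male array of another line reached H12.

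Obp8a, an odorant-binding protein gene on the X, read 9.77, 9.46, 9.77 and 9.71 in H12 males, and the other line means ran from 7.15 to 9.47. H12 was highest (1.53 ± 0.06, adjusted p = 9.8e-26), with H13 close at 9.47 and some overlap of arrays, while in females the difference was 0.23 ± 0.08 (adjusted p = 0.13). Ccdc85, a coiled-coil protein gene, differed by 1.44 ± 0.10 in males (adjusted p = 1.7e-16) and 0.54 ± 0.11 in females, where it was 0.39 without replicate 3 (adjusted p = 0.12). In males H14 was close to H12 (means of 6.80 and 7.05) with overlap of arrays, and the line after it was at 5.77. H14 was also next to H12 in females (6.88 against 7.13). Jon65Ai and Jon99Fi encode Jonah serine proteases of the gut. Jon65Ai read 11.76, 11.95, 11.82 and 12.11 against 9.07 to 11.60, with no overlap (1.37 ± 0.19, adjusted p = 2.6e-07). Jon99Fi read 12.04, 11.71, 11.18 and 12.16 against 9.26 to 11.63, with overlap (1.44 ± 0.34, adjusted p = 0.0023), and with replicates 1 and 3 alone its difference was 1.27 (adjusted p = 0.14). Of the 75 male differences of at least 2-fold, 70 had the same sign in females.

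In females the largest increase of a named gene was in asRNA:CR42871, annotated as an antisense RNA. H12 females read 7.94, 8.16, 7.93 and 8.23, and the other lines 5.86 to 6.52 (median 6.18), so H12 stood above all other female arrays (1.86 ± 0.08, 3.62-fold, adjusted p = 7.6e-24). H12 males read 5.13, 5.05, 4.97 and 4.87, within the range of the other male arrays (0.09 ± 0.08, adjusted p = 0.56). The gap between H12 and the other lines was thus seen in females. The male means of the other lines (4.81 to 5.02) were near the level of 5 under which probe signal is dim, where a difference is hard to see.

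PGRP-SC2, a secreted amidase of the gut that degrades bacterial peptidoglycan, read 11.50, 11.52, 11.86 and 11.59 in H12 females against 9.32 to 11.32 in the other lines. It did not overlap them (1.36 ± 0.17, adjusted p = 1.1e-07), and H12 males were the highest line too (1.09 ± 0.14, adjusted p = 1.3e-07). Gld2, a cytoplasmic poly(A) polymerase of the male germ line, read 6.36, 6.67, 6.69 and 7.19 in H12 females against 5.25 to 6.07 (1.24 ± 0.12, adjusted p = 5.2e-11). All other female arrays were below these, and in males, where Gld2 is far higher, H12 read 9.52, 9.53, 9.44 and 9.37 and differed by -0.11 ± 0.07 (adjusted p = 0.38). The type II BMP receptor gene wit (wishful thinking) read 8.10, 8.31, 8.09 and 8.26 in H12 females against 6.88 to 7.67, with no overlap (1.07 ± 0.11, adjusted p = 9.7e-10). In males it differed by 0.50 ± 0.09, and by 0.39 with replicates 1 and 3 alone (adjusted p = 0.054). CG8560 (1.09 ± 0.18), CG6839 (1.03 ± 0.14), CG12517 (1.01 ± 0.25) and CG31926 (1.00 ± 0.23) were also highest in H12 females, with overlap, and the call for CG12517 was lost without replicate 2 (adjusted p = 0.057) or 3 (0.14). Males of the other lines were near the low end of the scale for CG12517 (4.06 to 4.45) and CG31926 (3.71 to 4.11).

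Low transcripts of H12 females were led by CG8299. Its arrays read 6.16, 5.66, 6.36 and 5.64 against line means of 7.35 to 9.07 (median 7.98), below all other female arrays and 4.1-fold lower than the mean of the others (-2.04 ± 0.23, adjusted p = 5.9e-09). H12 males, at 6.84, 7.22, 8.08 and 7.92, were lower as well but overlapped the other lines (-0.80 ± 0.16, adjusted p = 0.00037), and H10 was lower than H12 there. GstD2, a glutathione S-transferase, read 6.00, 6.08, 6.05 and 6.23 in H12 females against 6.80 to 7.54 with no overlap (-1.04 ± 0.14, adjusted p = 8.4e-07). Its male values, 6.17, 6.04, 5.73 and 5.87 against 6.59 to 8.31, gave a larger difference with a larger error (-1.48 ± 0.53, adjusted p = 0.057), which did not pass, but passed with the replicate number as a block (adjusted p = 0.027). CG10154 read 4.98, 5.19, 4.94 and 5.94 in H12 females against 5.39 to 7.48 (-1.26 ± 0.23), and in males it was near the low end of the scale in all lines (4.18 to 4.56). CG6283 was lowest in H12 females (-0.89 ± 0.15) and low in males (-1.06 ± 0.18). CG5770 differed by -0.98 ± 0.26 in females, and by -0.88 without replicate 2 (adjusted p = 0.14) and -0.80 without replicate 4 (0.20).

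Some large differences fell on probe sets to which the annotation gives several genes or none, which are given here by identifier alone. The set 1627986_s_at was high in both sexes, at 9.95, 10.58, 9.98 and 10.09 in H12 males (1.71 ± 0.21, adjusted p = 1.1e-08) and 10.83, 10.46, 10.83 and 11.21 in H12 females (1.88 ± 0.21, adjusted p = 9.2e-09). The set 1641055_at was higher in H12 females (1.52 ± 0.15, adjusted p = 6.4e-11) and differed by -0.00 ± 0.11 in males (adjusted p = 0.98). The set 1639571_s_at read 5.54, 5.64, 5.40 and 5.09 in H12 females against 6.83 to 8.02, below all other female arrays (-2.08 ± 0.17, adjusted p = 1.9e-13).

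A call against the spread of replicates does not place H12 outside the differences among lines. With the line as the unit, H12 against the spread of the other 14 line means, limma called 16 transcripts in males (0.0852%), 11 higher and 5 lower, and 20 in females (0.107%), 10 in each direction. Cyp6t1 was not among them (adjusted p = 0.32 in males and 0.57 in females).

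**Figure D2:**
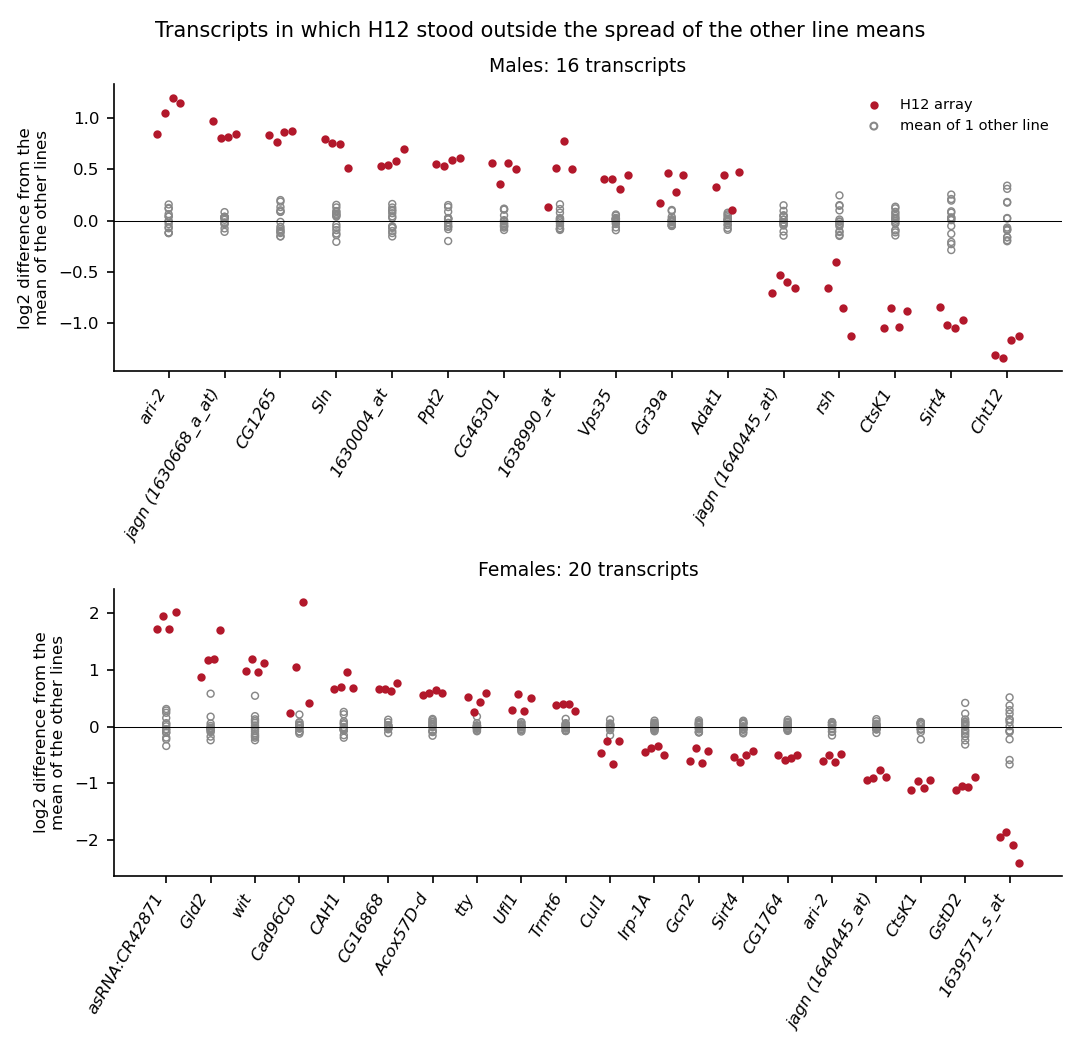
Difference from the mean of the other 14 lines, in log2 units, for the 16 male and 20 female transcripts called with the line as the unit. Red points are the 4 H12 arrays and grey circles the other line means, and for most transcripts the H12 arrays lie together outside the grey circles, whereas for Cad96Cb in females they run from 4.54 to 6.50 in level.

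CtsK1, Sirt4 and jagn passed in both sexes, lower in H12 in each. CtsK1, a cysteine protease of the cathepsin family, read 9.23, 9.43, 9.24 and 9.40 in H12 males against 10.13 to 10.41, and 11.46, 11.61, 11.48 and 11.63 in H12 females against 12.35 to 12.66. No H12 array overlapped another line in either sex, and the differences were -0.95 ± 0.05 and -1.03 ± 0.07 (adjusted p = 0.00013 and 2.7e-05 with the line as the unit). Sirt4, a mitochondrial sirtuin gene on the X, read 7.70, 7.53, 7.50 and 7.57 in H12 males against 8.26 to 8.80. H12 females read 7.79, 7.71, 7.83 and 7.90 against 8.21 to 8.44. Again no array overlapped, and the differences were -0.97 ± 0.08 and -0.53 ± 0.05 (adjusted p = 0.034 and 0.0055 with the line as the unit).

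The probe sets of jagn (jagunal), which encodes a protein of the endoplasmic reticulum needed in oocytes, disagreed. The set 1640445_at read 9.34, 9.51, 9.44 and 9.38 in H12 males against 9.90 to 10.19, and 9.33, 9.37, 9.52 and 9.40 in H12 females against 10.17 to 10.41. It was below every other array of each sex (-0.62 ± 0.05 in males and -0.88 ± 0.04 in females). The set 1630668_a_at read 9.19, 9.02, 9.03 and 9.06 in H12 males against 8.11 to 8.30, above every other male array (0.86 ± 0.06, adjusted p = 6.5e-06 with the line as the unit). In H12 females it read 9.19, 9.09, 9.31 and 9.12 against 9.38 to 9.58, the lowest line (-0.33 ± 0.05). A male difference of 1 jagn probe set is therefore opposite in sign to that of the other. Among genes called in males that have several probe sets, 299 of 464 other probe sets had the same sign, and 39 of these were also called. Over all transcripts 13% were called in males, 6.33% higher and 6.62% lower, so a call was seldom repeated by a second probe set.

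The other male transcripts called with the line as the unit had varied roles. Cht12, a chitinase gene, read 7.90, 7.86, 8.05 and 8.08 in H12 males against 9.01 to 9.55, below all other male arrays (-1.24 ± 0.09). CG1265 (0.83 ± 0.05), the monocarboxylate transporter gene Sln (0.70 ± 0.09), the thioesterase gene Ppt2 (0.57 ± 0.05), the retromer gene Vps35 (0.39 ± 0.05) and 1630004_at (0.59 ± 0.08) were above all other male arrays, and CG1265 was so in females too (0.32 ± 0.04). CG46301, the gustatory receptor gene Gr39a, the tRNA deaminase gene Adat1 and 1638990_at were higher by 0.34 to 0.50, and rsh (radish, known for its part in memory) differed by -0.76 ± 0.15. The H12 means of these 5 were under the level of 5 at which probe sets count as dim, and their arrays overlapped other lines. With replicates 1 and 3 alone the differences of Adat1 and Gr39a were 0.21 (adjusted p = 0.39) and 0.23 (0.22). Other probe sets of rsh (-0.03), CG46301 (-0.06 and -0.05) and Gr39a (-0.07 to 0.14) were not called in males.

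Among females, CG16868 read 9.89, 9.90, 9.85 and 9.99 against 9.11 to 9.35 (0.68 ± 0.06), and the acyl-CoA oxidase gene Acox57D-d 9.78, 9.82, 9.87 and 9.82 against 9.06 to 9.36 (0.60 ± 0.04). Both stood above all other female arrays, as did the carbonic anhydrase gene CAH1 (0.75 ± 0.09) and the tRNA methyltransferase gene Trmt6 (0.36 ± 0.05). The UFM1 ligase gene Ufl1 (0.41 ± 0.05) and the chloride channel gene tty (0.45 ± 0.07) were higher with overlap. CG1764 (-0.54 ± 0.05), the eIF2 kinase gene Gcn2 (-0.52 ± 0.05) and the iron regulatory protein gene Irp-1A (-0.42 ± 0.05) were below all other female arrays, and Irp-1A below all other male arrays too (-0.54 ± 0.05). Cad96Cb read 4.54, 5.35, 6.50 and 4.72, and its difference fell from 0.98 to 0.57 without replicate 3 (adjusted p = 0.00014), while a second probe set of Cad96Cb differed by 0.04 (adjusted p = 0.92). A second set of tty was also higher (0.83). The other female transcripts called with the line as the unit were asRNA:CR42871, Gld2, wit, GstD2, 1639571_s_at, ari-2 and Cul1.

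Of the 285 transcripts called in both sexes, 273 (1.45%) had the same sign, 175 higher and 98 lower in H12. Other lines shared 87 to 362 by the same count (median 135). Of the 273, 32 were also called for a difference between the sexes, and 23 of these were larger in males. The shared count was 147 with male replicates 1 and 3 alone. The 8 named genes with the largest smaller difference of both sexes were CG1304, CG11034, Cyp6t1, PGRP-SC2, lectin-24A, CG32751, CG6839 and CG14963, of which Cyp6t1 was lower in H12 and the other 7 higher.

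Several of these were not extremes among the lines. CG1304, a serine protease gene on the X, read 7.44, 7.32, 7.23 and 7.29 in H12 males, with 6 other lines higher and 8 lower over a range of 3.56 to 8.91. H12 females read 6.27, 6.20, 6.34 and 6.04, with 5 lines higher and 9 lower. The differences of 1.72 ± 0.10 and 1.22 ± 0.14 (adjusted p = 4.5e-20 and 2.2e-08) thus placed H12 within a set of high lines, since the median line was at 3.76 in males and 3.99 in females. CG11034 read 8.29, 8.33, 7.89 and 8.21 in H12 males (1.12 ± 0.17) and 7.46, 7.41, 7.76 and 7.46 in H12 females (1.68 ± 0.14). H13 and H14 were next to it in males, and H07 and H14 in females. The C-type lectin gene lectin-24A differed by 1.17 ± 0.31 and 1.09 ± 0.31 in males and females, and CG32751 by 1.07 ± 0.12 and 1.15 ± 0.33. The female call was lost without any 1 of the 4 female arrays for lectin-24A (adjusted p of 0.068 to 0.19) and for CG32751 (0.053 to 0.38), and the male call of lectin-24A with replicates 1 and 3 alone (0.15).

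**Figure D3:**
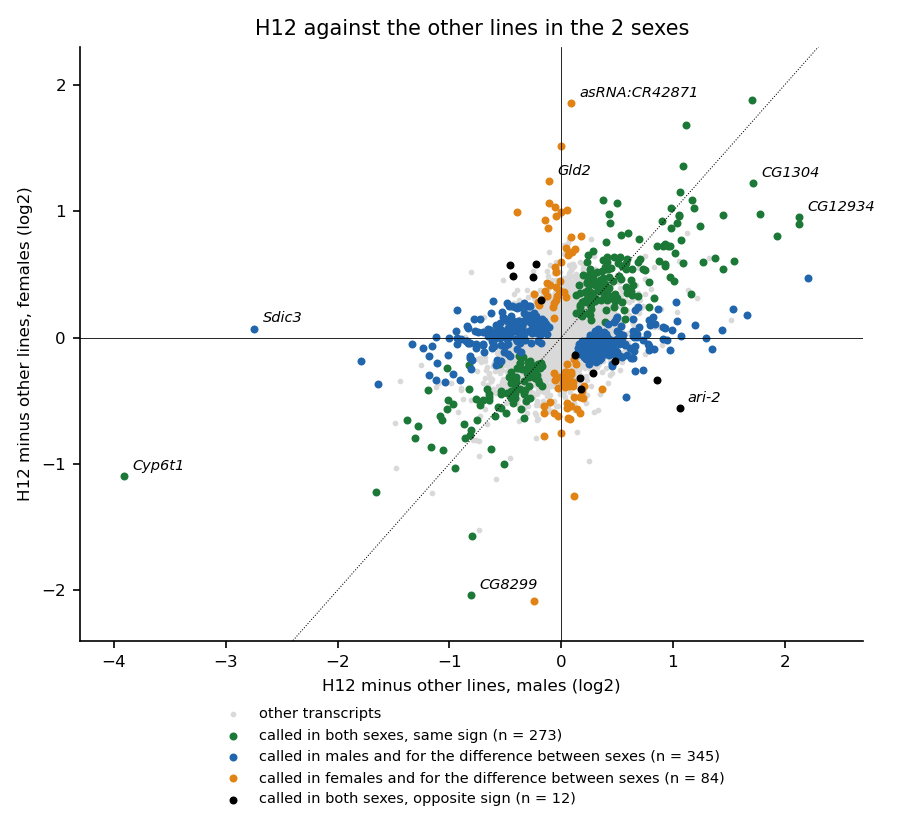
Difference of H12 from the other lines in males (x axis) and in females (y axis), in log2 units, for 18,769 transcripts, with a dotted line where both are equal. Green points are the 273 shared calls, blue and orange points the 345 male and 84 female calls that also differed between the sexes, and black points the 12 calls of opposite sign.

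Calls in 1 sex were more frequent, but most were not shown to differ from the other sex. Of 2,146 transcripts called in males alone, 345 were also called for the difference between the sexes and 1,801 were not, and 1,486 had the same sign in females. Of 307 called in females alone, 84 were called for that difference and 223 were not, and 206 had the same sign in males. Across all transcripts the male and female differences of H12 correlated at r = 0.388, as a description over transcripts that share their arrays.

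In 12 transcripts H12 was called in both sexes with opposite sign, 7 of them higher in males, and all 12 were called for the difference between the sexes. The largest was ari-2 (ariadne-2, an E3 ubiquitin ligase), which read 8.64, 8.84, 8.99 and 8.93 in H12 males against 7.67 to 7.95, above all other male arrays (1.06 ± 0.06, adjusted p = 2.3e-20). H12 females read 9.37, 9.49, 9.37 and 9.50 against 9.83 to 10.07, the lowest of the 15 lines with slight overlap of arrays (-0.56 ± 0.08, adjusted p = 2.7e-06). Both calls held with the line as the unit (adjusted p = 9.4e-05 and 0.0049). Higher in males and lower in females were also jagn by 1630668_a_at, GstT3 (0.48 and -0.18), Cul1, the scaffold of SCF ubiquitin ligases (0.18 and -0.41), CR14117 (0.28 and -0.28), Dbct (0.17 and -0.32) and Fis1 (0.13 and -0.14). The reverse held for Taf12L (-0.46 and 0.58), 1622908_a_at (-0.43 and 0.48), CG12998 (-0.23 and 0.58), CG13029 (-0.25 and 0.48) and Cln7 (-0.18 and 0.30).

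The male-female difference of H12 departed from that of the other lines for 512 transcripts (2.73%), upwards for 269 and downwards for 243, and for 38 by at least 2-fold. Other lines gave 191 to 2,548 (median 373), and H12 ranked 6th. That count was 226 with male replicates 1 and 3 alone. With the line as the unit 5 transcripts were called (0.0266%), namely asRNA:CR42871, Gld2, ari-2, Cht12 and jagn by 1630668_a_at.

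**Figure D4:**
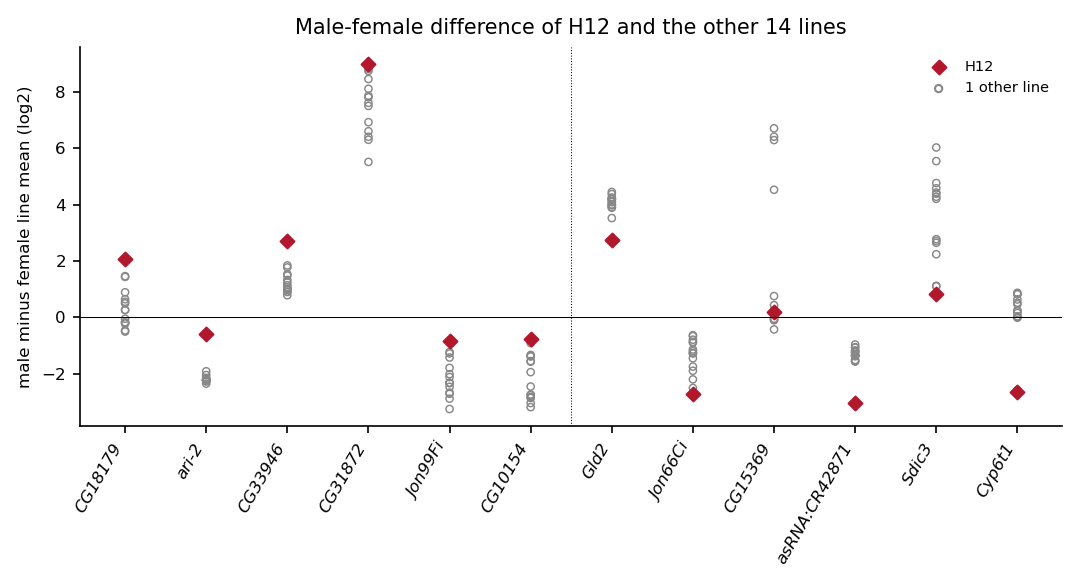
Male minus female line mean, in log2 units, for the 6 transcripts with the largest upward and the 6 with the largest downward departure of H12 from the other lines. Diamonds are H12 and grey circles the 14 other lines, and ari-2 in H12, at -0.58, lies above all of the other lines (-2.35 to -1.92).

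The departures ran through changes in 1 sex, in both and in opposite directions. For ari-2 the male minus female difference was -0.58 in H12 and -2.35 to -1.92 in the other lines (1.62 ± 0.10, adjusted p = 2.9e-25). For asRNA:CR42871 it was -3.06 in H12 and -1.57 to -0.97 elsewhere (-1.77 ± 0.11). For Gld2 it was 2.74 and 3.53 to 4.45 (-1.35 ± 0.14). In these 3 genes H12 lay outside the range of all other lines, but this was not particular to them. The same held for Cyp6t1, Sdic3, CG33946, CG18179, CG31872, CG10154, Jon99Fi and Jon66Ci, while CG15369 lay inside (0.20 against -0.43 to 6.71). The gap to the nearest line was small for Cyp6t1, CG31872 (8.99 against at most 8.86) and CG10154 (-0.77 against at most -0.92). Cyp6t1 stood at -2.66 in H12, with H09 as the nearest of the others (-2.59 to 0.87, -2.82 ± 0.12), and Sdic3 at 0.81 against 1.10 to 6.03 (-2.82 ± 0.18).

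CG33946 (1.48 ± 0.19), CG18179 (1.74 ± 0.30) and CG31872 (1.45 ± 0.27) departed upwards through high H12 males. CG31872 was near the low end of the scale in females of all lines (2.68 to 2.88), and for CG18179 H07 males at 10.04 were above H12, which read 8.99, 9.68, 9.26 and 9.07. CG15369 departed by -1.60 ± 0.15, although the mean of the H12 males, which read 4.45, 4.64, 4.75 and 4.67, lay within 1 of 10 of the other 14 line means (median 4.84). The highest male lines were H10 at 11.52 and H14 at 11.05. The departures of Jon99Fi (1.38, adjusted p = 0.018) and Jon66Ci (-1.39, adjusted p = 0.030), both Jonah proteases, were lost with male replicates 1 and 3 alone (adjusted p = 0.22 and 0.16) and without other single arrays. Those of CG4998 (0.056), CG14963 (0.070) and mthl8 (0.58) were also lost with replicates 1 and 3 alone. The departure of CG4998 was lost too without female replicate 1 (0.13), male replicate 1 (0.11) or male replicate 3 (0.058). That of mthl8 was lost without replicate 2 of the females (0.080) or of the males (0.15).

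Gene lists were read against all 11,953 genes with a symbol, of which 17% were called in males (8.22% higher and 8.78% lower) and 3.98% in females (2.28% higher and 1.7% lower), with a median difference of -0.00 in males. With male replicates 1 and 3 alone, 291 genes were higher and 279 lower. The lists are described by their counts, with no test of a list.

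Of 80 cytochrome P450 genes, whose enzymes oxidise toxins and hormones, 9 were higher and 20 lower in H12 males and 4 higher and 8 lower in females, and with male replicates 1 and 3 alone 2 were higher and 7 lower. The list median was -0.04 in males. After Cyp6t1 the largest were neighbours of the Cyp6a cluster on 2R, with opposite signs. Cyp6a17 read 8.68, 8.53, 8.94 and 8.98 in H12 males against 8.84 to 10.22 (-1.09 ± 0.09 in males, -0.62 ± 0.07 in females). Cyp6a23 read 9.51, 9.32, 9.68 and 9.33 against 7.87 to 9.80 (1.03 ± 0.11 in males, 0.91 ± 0.12 in females). H12 was the lowest male line for Cyp6a17, but H07 (8.84) and H14 (8.88) were nearly as low. In females H07 (8.22), H12 (8.23) and H14 (8.23) were at the same level. H12 was 3rd highest for Cyp6a23, below H07 and H14 in males (9.66 and 9.80) and in females (8.14 and 8.21). The pattern was thus not particular to H12. Since the copies are similar in sequence, the share of each in the other's signal is uncertain. Cyp28d1 was lowest in both sexes (-1.02 ± 0.09 and -0.57 ± 0.11), Cyp4d1 was lower (-0.59 and -0.62), and Cyp6g1, known for insecticide resistance, was higher (0.24 and 0.66).

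Glutathione S-transferases, which conjugate glutathione to reactive compounds, leaned lower: 4 of 34 were higher and 10 lower in H12 males, 0 higher and 7 lower in females (2 and 10 at an unadjusted p under 0.05), with list medians of -0.13 and -0.11. In male replicates 1 and 3 alone 1 was higher and 5 lower. GstD10 read 5.62, 5.84, 5.83 and 5.48 in H12 males against 6.22 to 7.01, below all other male arrays (-0.90 ± 0.13). GstE1 differed by -0.82 ± 0.12 and GstD3 by -0.62 ± 0.06 in males, and neither was called in females. GstE3 was lower in both sexes (-0.50 and -0.60), while GstT3 was the gene of opposite sign given above.

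Digestive serine proteases were higher in 9 of 26 genes and lower in 2 in H12 males, and higher in 5 and lower in 0 in females (8 and 1 at an unadjusted p under 0.05), although the list median was -0.05 in males. Replicates 1 and 3 of the males alone gave 3 higher and 1 lower. Ser6 on the X read 9.91, 9.87, 9.80 and 9.82 in H12 males against 3.89 to 10.11 (1.93 ± 0.08), with 3 lines higher, and differed by 0.81 ± 0.13 in females. Jon44E was higher in both sexes (1.06 ± 0.21 and 0.96 ± 0.20), while the trypsin genes alphaTry (-0.14) and betaTry (-0.21) were lower in males. Of 18 maltases and amylases, which digest starch and sugars, 5 were lower in males and 2 in females, among them Mal-A2 in both (-0.33 ± 0.10 and -0.64 ± 0.18). The 5 male calls were lost with replicates 1 and 3 alone. The lysozyme genes LysP (0.93 ± 0.13 and 0.56 ± 0.13) and LysS (0.55 ± 0.07 and 0.56 ± 0.08) were higher in both sexes, 2 of the 3 lysozymes measured, also with male replicates 1 and 3 alone.

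Genes of sperm formation were lower in 10 of 48 cases and higher in 1 in H12 males, with a list median of -0.13, and 0 were called in females (2 higher and 3 lower at an unadjusted p under 0.05). The mean level of these genes was 9.30, 9.23, 9.30 and 9.28 in male replicates 1 to 4, against 9.17 to 9.75 on the other male arrays (median 9.44). Besides Sdic3 and Sdic1, lower genes were the testis tubulin betaTub85D (-0.41 ± 0.06), the mitochondrial fusion gene fzo (-0.34 ± 0.10), S-Lap5 (-0.32 ± 0.08) and boly (-0.31), and Mst57Dc, a transcript of the male accessory gland, was higher (0.18). With male replicates 1 and 3 alone 2 were lower. Of 66 genes of the respiratory chain and ATP synthase, 12 were lower and 1 higher in males (19.7%, against 17% of all genes). ATPsynCF6L (-0.48) led the lower ones, and ND-B8 was higher in both sexes (0.51 and 0.59). Replicates 1 and 3 alone gave 2 lower and 1 higher, while the replicate number as a block gave 20 lower. Of 30 accessory gland genes, which encode seminal proteins, 4 (13.3%, against 17% of all genes) were called in males, all higher, and these calls were lost with replicates 1 and 3 alone.

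**Figure D5:**
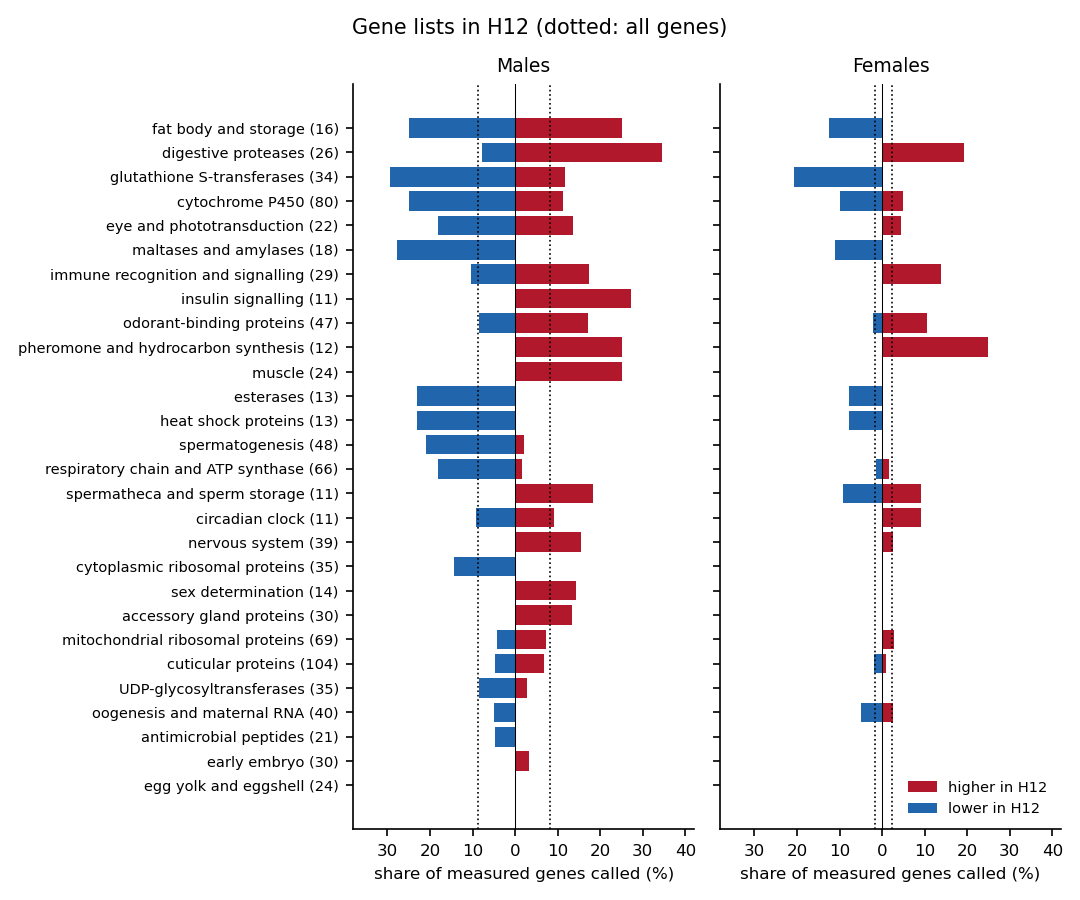
Share of the measured genes of a list that was called higher or lower in H12, in percent, in males and females. The smallest lists (ejaculatory duct and bulb, Y-linked, lysozyme, Turandot, metallothionein and dosage compensation genes) are not drawn. Dotted lines mark the share over all 11,953 genes (8.22% and 8.78% in males, 2.28% and 1.7% in females). The bars of the cytochrome P450s lie beyond them on both sides in both sexes. So do the lower bars of the glutathione S-transferases, esterases, maltases and amylases, heat shock proteins, and fat body and storage genes. Higher bars do so in both sexes for the digestive protease, odorant-binding protein, immune, pheromone, eye, nervous system, circadian clock and spermatheca lists. Those female bars are 1 gene each for the esterase, heat shock, eye, nervous system, circadian clock and spermatheca lists. The higher male bar of the circadian clock list is 1 gene as well.

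Muscle genes were called in 6 of 24 cases in H12 males (25%, against 17% of all genes), all higher. At an unadjusted p under 0.05 the counts were 12 higher and 0 lower. Among the 6 were sls (0.34) and bt (0.18), which encode giant sarcomere proteins. Nervous system genes were called in 6 of 39 cases (15.4%, against 17% of all genes), all higher, among them futsch (0.37), Dh31 (0.25) and ChAT (0.23). The other 2 probe sets of futsch differed by 0.09 and -0.01 and were not called. The calls of both lists were lost with replicates 1 and 3 alone, and with arrays centred on their medians the muscle count was 3. The level of nSyb, a marker of neurons, was 9.10, 9.67, 8.40 and 8.56 in the 4 H12 males against 7.76 to 9.43 on the other male arrays, and its part in these counts was not tested.

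Of 47 odorant-binding protein genes, 8 were higher and 4 lower in males and 5 higher and 1 lower in females, and 2 were higher and 2 lower with male replicates 1 and 3 alone. Obp99b, a gene of the fat body, was lower in males (-1.18), Obp56h higher in both sexes (0.91 and 0.72) and Obp57a lower in both (-0.86 and -0.79). The storage protein gene Lsp2 was lower in males (-1.16, adjusted p = 3.7e-06), and its female difference of -1.23 did not pass (adjusted p = 0.096). Among 4 metallothioneins, which bind metals, MtnD (1.33) and MtnC (0.49) were higher in males and MtnA lower (-0.10), and the MtnA call was lost with replicates 1 and 3 alone. In 12 genes of pheromone and hydrocarbon synthesis 3 were higher in each sex, with CG9458 (0.26 and 0.54) and CG7910 (0.27 and 0.47) in both, and 1 was higher with male replicates 1 and 3 alone. Of 29 genes of immune recognition and signalling 5 were higher and 3 lower in males and 4 higher in females, among them PGRP-SC2 in both, and with male replicates 1 and 3 alone 1 was called, higher. Against 17% of all genes, 11.5% of 104 cuticular protein genes (7 higher and 5 lower), 11.6% of 69 mitochondrial ribosomal protein genes (5 and 3) and 11.4% of 35 UDP-glycosyltransferase genes (1 and 3) were called in males.

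By chromosome, 18.6% of transcripts on the X, 16.3% on 2L, 16.1% on 2R, 14.5% on 3L and 14.4% on 3R were called in males. The female shares were 3.08%, 3.71%, 4.49%, 4.2% and 3.18% in the same order, and those for the difference between the sexes were 4.66% on the X and 2.54% to 3.47% on the other arms. Among transcripts called in either sex, the slope of the female on the male difference was 0.27 on the X and 0.37 on chromosomes 2 and 3. On single arms of chromosomes 2 and 3 it ran from 0.33 to 0.41. Large male differences weigh most in this slope, and on the X they include Cyp6t1 and Sdic3, whose share in it was not tested. Over all transcripts the male and female differences correlated alike, at r = 0.41 on the X and 0.40 on chromosomes 2 and 3. On the fourth chromosome, which the line does not share, 14 of 82 transcripts (17.1%) were called in males and 0 in females.

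In gene order, 235 windows of 50 genes held 2% to 40% of genes called in males (median 16%) and 0% to 16% in females (median 4%). The last 4 windows of the X, chosen after their values were seen and so given with no test, held 183 genes, of which 66 (36.1%) were called in males, 21 higher and 45 lower, against 18.5% over the rest of the X. The other lines had 13.1% to 37.2% there (median 19.4%, against a median of 11% over all genes), with H07 highest. Relative to all genes, the male share there was 2.12 times as high in H12 and up to 2.29 times in another line (P13). A high share there was thus not particular to H12. Female calls were 7.1% there and 3% over the rest of the X. The female share relative to all genes was 1.78 in H12 and up to 2.72 in another line (H10). With male replicates 1 and 3 alone 14.2% of the 183 genes were called, against 4.77% of all genes. The stretch holds Cyp6t1, Sdic1 and Sdic3, GstT3, tty, Obp19b (0.39 in males and 0.34 in females) and the adjacent serine protease genes Ser6 and CG1304.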

How the data were processed

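Whole-fly RNA of 120 samples (15 hemiclonal lines, 2 sexes, 4 replicates) was hybridised to Affymetrix arrays. The authors deposited log2 expression values made with RMA in the affy package, per the methods and labels, which were used as given. Whether RMA was run on all arrays at once is not given in the sources used here, and the number of arrays limits the precision. Of 18,952 probe sets, 183 controls were left out. The annotation gives 1 gene to 13,647 of the others, several to 402 and none to 4,720, and 13,544 of the symbols were updated through Entrez IDs and 91 through symbols or synonyms.

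For each sex, limma 3.58.1 (R 4.3.3) was fitted to 60 arrays with the 15 lines as levels, and to all 120 arrays with 30 line-by-sex levels for the difference between the sexes. P-values were adjusted by Benjamini-Hochberg over 18,769 transcripts, and calls were made at 0.05. With the line as the unit, the 14 other line means gave the spread. Per the methods, replicates were independent groups of flies of a line and sex, and p-values measure the spread between such groups. The scripts were tested on simulated data. Alternatives were median centring, quantile normalisation within each sex, leaving out dim probe sets, array weights, a robust variance prior with a trend, a replicate block, 1 fit of both sexes, an FDR of 0.001, and leaving out each H12 array and each other line. Male replicates 1 and 3 alone and Yp1 as a covariate were added after seeing the data. The deviations of H12 male replicates 1 to 4 from their mean were correlated with those of same-numbered male arrays of the other lines (r = 0.11, 0.32, 0.29 and 0.38). Replicate 1 was closer to another number (0.17). The numbers may thus pair the males, but this evidence covers only H12 and holds for replicates 2, 3 and 4. The main fits hold no replicate term. The batch in which an array was processed is not given in the sources used here and was not fitted.

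In gene lists and counts of genes, a gene with several probe sets was read by the one with the highest mean over all 120 arrays. Named genes have 1 symbol in the annotation. They are, per sex, the 8 largest differences in each direction among called transcripts with H12 the highest or lowest line, the 8 shared calls with the largest smaller difference of both sexes, the 6 largest departures of the sex difference in each direction, up to 4 called members of each of 34 gene lists, and all members of counts of 5 or fewer. Members of the counts with the line as the unit, the opposite calls, further list members and probe sets without 1 gene were named after their values were seen. The line, the lists and the tests were chosen with earlier results of these data known.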

Additional observations from a re-analysis of the deposited data

Results flagged for a closer look

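Among 224 groups of 4 H12 arrays tested for the named transcripts, 12 had 1 array far from the other 3, and chance flags about 1 in 20 groups. In females these were CG6839 in replicate 4 (8.57), CG31926 in replicate 1 (9.20), CG11034 in replicate 3 (7.76), alpha-Est10 in replicate 3 (7.09), Jon44E in replicate 1 (10.2), CAH1 in replicate 3 (10.3) and Trmt6 in replicate 4 (8.84). In males they were CG31872 in replicate 3 (11.4), GstE1 in replicate 2 (10.2), LysS in replicate 2 (5.96), bond in replicate 3 (10.8) and 1634633_s_at in replicate 3 (6.95), all as log2 levels.

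For 27 leading genes the difference between H12 and the other lines itself differed between males and females (limma interaction, FDR of 0.05). The male difference minus the female difference was positive for CG18179 (1.74), ari-2 (1.62), CG33946 (1.48), CG31872 (1.45), Jon99Fi (1.38), CG10154 (1.37), Obp8a (1.30), CG4998 (1.23), CG8299 (1.23), CG12934 (1.18), Ccdc85 (0.90), CG14963 (0.80) and jagn by 1640445_at (0.25). It was negative for Cyp6t1 (-2.82), Sdic3 (-2.82), asRNA:CR42871 (-1.77), CG15369 (-1.60), Jon66Ci (-1.39), Gld2 (-1.35), CR11023 (-1.28), CG11211 (-1.27), CG31926 (-0.99), CG12517 (-0.96), mthl8 (-0.73), CG8560 (-0.72), wit (-0.57) and CG6834 (-0.51). With male replicates 1 and 3 alone the adjusted p exceeded the threshold for CG4998, CG8299, CG14963, Jon99Fi, Jon66Ci, CG12517, mthl8, CG8560, CG6834 and jagn. It also did so in at least 1 fit without 1 H12 array for CG4998, Jon99Fi, Jon66Ci, CG12517, mthl8, CG8560, jagn, wit and CG31926.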

How the results depend on the processing

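The counts of male, female, interaction (difference between the sexes) and shared calls were 2,431, 592, 512 and 273. With male replicates 1 and 3 alone the male, interaction and shared counts were 695, 226 and 147, and fewer arrays were fitted. Array weights gave 1,085 female, 828 interaction and 464 shared calls (cause not tested). With the line as the unit the 4 counts were 16, 20, 5 and 3, and at an FDR of 0.001 they were 600, 166, 117 and 62. Leaving out 1 H12 array gave 1,273 to 1,912 male calls (lowest without male replicate 2, then 1,588 without replicate 1), 325 to 455 female (325, 362 and 370 without female replicates 3, 4 and 2), 303 to 494 interaction (303 without male replicate 2 and 341 without female replicate 3) and 164 to 228 shared calls (164 without female replicate 3). Leaving out 1 other line gave 2,163 to 2,659, 524 to 759, 450 to 560 and 246 to 332. Centring, quantile normalisation, the variance prior, the dim filter and the Yp1 covariate moved no count by over 1.5 times. The share of female calls that were higher was 56.9%, and 49.2% without female replicate 3.

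With the replicate block the counts were 3,063, 719, 738 and 331, it kept all 2,431 male and 591 of 592 female calls, and it lost no call of a named transcript. It added 12 calls of named transcripts, 2 in males (GstD2 and tty), 5 in females and 5 for the difference between the sexes, and the count of lower maltases and amylases in females rose from 2 to 6. The female arrays share only a number (correlations of 0.19, 0.08, -0.15 and 0.25), and 2 of 4 were closest to their own number.

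None of the 286 named differences reversed under the alternatives run, which reuse the same arrays and so are not independent. An FDR of 0.001 lost 125, the line as the unit 245, male replicates 1 and 3 alone 93 of 204, leaving out male replicate 2 56 of 204, and leaving out P50 27. Of 156 leading differences, 113 held without any 1 H12 array and with male replicates 1 and 3 alone. Levels under 5, where probe signal is dim, held 213 male and 48 female calls.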
